A study of Danio rerio with 12 samples.

Results

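Nuclear receptors are transcription factors, most of which carry a pocket for a small lipid-soluble ligand, so that steroids, retinoids, fatty acids, bile acids and foreign chemicals act directly on genes. Many of them bind DNA as a pair with a retinoid X receptor (RXR), and the orphan members, for which no natural ligand is firmly established, work alongside them as activators or repressors. In the vertebrate eye retinoic acid receptors and the orphan NR2F receptors (the COUP-TF group) take part in patterning the retina along its axes, and NR2E and NR4A members take part in the formation of retinal neurons.

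The nuclear receptor genes outside the clock, thyroid hormone and photoreceptor fate groups were examined in retinas of adult F3 zebrafish. They were found by gene symbol: 56 symbols matched the patterns for NR, RAR, RXR, PPAR, estrogen, estrogen-related, androgen and vitamin D receptor genes. Of these, 8 were set aside as clock, photoreceptor fate or immediate early receptors (the nr1d genes, nr2e3, nr4a1 and nr4a3), and 3 because they are not receptors (esrp1, esrp2 and nr2c2ap). This left 45 of the 32674 genes in the table, of which 20495 carry a symbol. The genes hnf4a, hnf4g and pgr are receptors too, but their symbols do not match the patterns and they were not counted.

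All fish were of the EK strain and differed by lineage. The MeHg lineage descended from F1 eggs held in 0.03 µM MeHg (methylmercury, an organic mercury compound toxic to the nervous system) with ethanol as solvent over 24 h, and the control lineage from F1 eggs held over 24 h in the ethanol vehicle with 0 µM MeHg. Neither the F2 nor the F3 fish met added MeHg, so the comparison asks whether ancestral exposure goes with a different retinal transcriptome. The libraries are replicates within each lineage, and the tests measure differences against the spread among libraries. Ancestral MeHg and any other difference between the lineages cannot be told apart. The labels give 6 biological replicates per lineage; 11 libraries had a named column of values and were used, MeHg 2 to 7 and control 3, 4, 5, 7 and 8. Levels are FPKM, fragments per transcript length and library size. Assigned fragments were inferred from companion scaled fragment numbers, taking the commonest value above 0 of each library as 1 fragment. By this estimate each library held 4354472 to 6749647 assigned fragments in the MeHg lineage and 2838157 to 5663021 in the control lineage. Fragments per gene given below were inferred in the same way. Differences are those of log2(FPKM + 1), MeHg minus control, and with the added 1 they come out too small for low genes. They were tested with limma over all 20320 genes averaging 0.5 FPKM or more, and a gene was called at a Benjamini-Hochberg adjusted p under 0.05.

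Some libraries stood apart in ways that bear on every result. Control libraries 5 and 7 carried egg transcripts: 17 oocyte markers summed to 1717 FPKM in control 5 and 3346 FPKM in control 7, against at most 3.31 FPKM in any MeHg library and at most 6.63 FPKM in the other control libraries, with zp2.2, zp2.5, zp3c, figla and ca15b at 0 in all MeHg libraries. The 12 pigment epithelium markers summed to 1470 to 1850 FPKM in the MeHg lineage and 3186 to 17959 FPKM in the control lineage, without overlap and with none at 0. Taken singly these markers did not share a direction. In the MeHg lineage 3 were called higher and 3 lower (50%, beside 8.98% of all genes), with a median log2 difference of -0.05. Markers of the labelled tissue were abundant: cone genes summed to 16459 to 21547 FPKM in MeHg retinas and 7025 to 18343 FPKM in control retinas. These sums overlapped, but single cone genes mostly shifted upward in the MeHg lineage. Among 9 tested, 4 were called higher and 1 lower (55.6%, beside 8.98% of all genes). The cone median stood at 0.87 on the log2 scale, and at 0.57 once controls 5 and 7 were dropped. Rod genes summed to 7596 to 10102 FPKM in MeHg retinas and 9493 to 30031 FPKM in control retinas, with rho listed at 0 in all MeHg libraries. Like the pigment epithelium markers, the rod genes did not share a direction. Of 12 tested, 2 were called higher and 3 lower (41.7%, beside 8.98% of all genes), and their median log2 difference was 0.50. The summed markers of the other retinal cells, blood, vessels and of muscle, skin and lens overlapped between the lineages. The part of these differences in the receptor results was not tested. In bulk retina, fewer cells of a type and less RNA per cell cannot be told apart.

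Most of the family was measurable in the adult retina. Of the 45 genes, 16 averaged at least 10 FPKM over all libraries, 17 averaged 1 to 10 FPKM and 12 less than 1 FPKM, and 36 passed the filter. The estrogen-related receptor gene esrrd was the most abundant in both lineages. In the MeHg lineage it was followed by esrra and nr2f2, and in the control lineage by nr2f6b and esrra. The 9 untested genes lay below the filter, the nearest at 0.367 FPKM (nr0b1) against 0.627 FPKM for the lowest gene tested (nr6a1b). They were rxrab, rargb, the bile acid receptor gene nr1h4 and its relative nr1h5, the steroidogenic regulators nr5a1b, nr5a5 and nr0b1, the repressor nr0b2a, and the germ cell factor gene nr6a1a. The last was at 0 in all 11 libraries. The gene nr1h4 was at 0 in all 6 MeHg libraries and was above 0 in 3 control libraries, at 0.432 FPKM in control 5, 0.362 FPKM in control 7 and 0.187 FPKM in control 8.

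**Figure D1:**
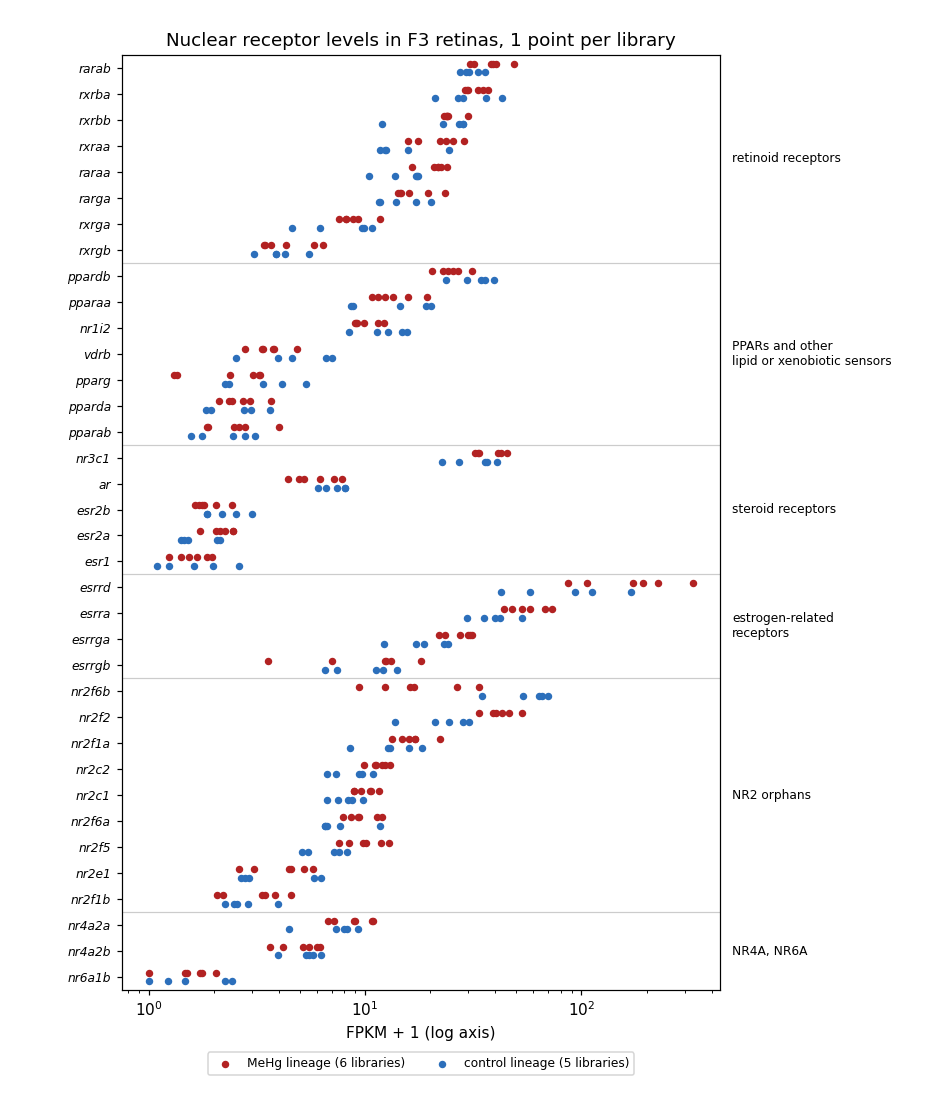
Level of the 36 tested nuclear receptor genes as FPKM + 1 on a log axis, 1 point per library, MeHg lineage in red above control lineage in blue, grouped by role. For nr2f6b the MeHg points (8.38 to 32.6 FPKM) lie left of the control points (33.7 to 68.9 FPKM), for nr2f2 they lie to the right, and for the other genes the lineages overlap.

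Between the lineages the called receptors were 2 members of the NR2F group that moved in opposite directions: nr2f2 rose and nr2f6b fell in the MeHg lineage. These were 2 of 36 tested receptor genes (5.56%), against 8.98% of all genes tested. The 1 higher call compares with a background of 5.47% called higher and the 1 lower call with 3.5% called lower. The same 2 genes were those whose values did not overlap between the lineages, again 5.56% of the tested receptors against 7.52% of all genes. At an unadjusted p under 0.05 there were 10 receptors (27.8%), against 24.1% of all genes. These shares lie near those of all genes and are no result about the family.

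Small positive differences were common among the receptors. Of the 36, 26 (72.2%) had a difference above 0, against 51.5% of all genes, and the median difference was 0.16 against 0.02. In absolute size the median was 0.28 for receptors and 0.30 for all genes. The lean toward positive values moved with control libraries 5 and 7: without both of them 21 of 36 receptors (58.3%) were above 0, against 49.7% of all genes, and the median was 0.04. Control 7 held the lowest control value for 24 of the 36 receptors, against 36% of all genes. Without these libraries nr2f2 stayed higher, and nr2f6b and the fatty acid receptor gene ppardb were lower, against 8.28% of all genes called in either direction. On the FPKM + 1 scale the 95% confidence interval of the difference lay within 2-fold either way for 31 of the 36 receptors, and within 1.5-fold for 7. For scarce genes this does not bound the change in level, as the added 1 shrinks their differences. The interval of esr1 was -0.58 to 0.53, while its control values ran from 0.09 to 1.60 FPKM.

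**Figure D2:**
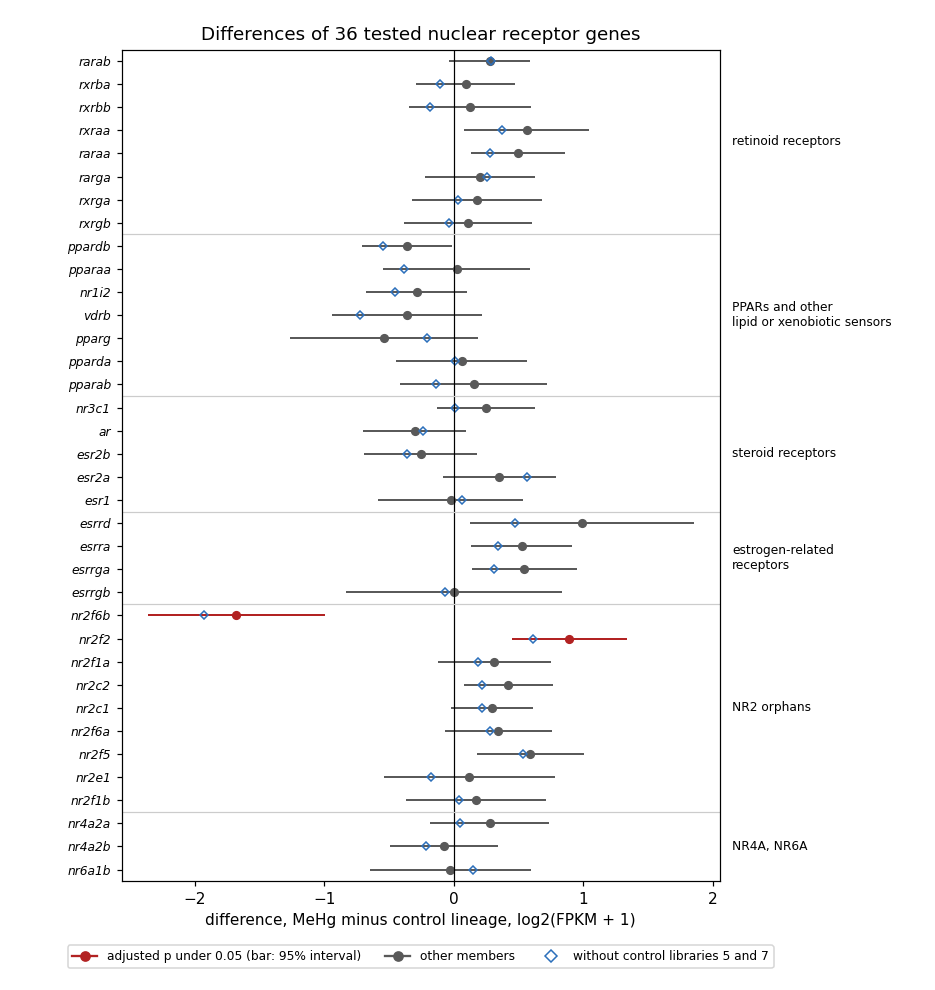
Difference of each of the 36 tested receptor genes, MeHg minus control, as log2(FPKM + 1), with its 95% confidence interval; open diamonds give the value without control libraries 5 and 7. The intervals of nr2f6b (-2.357 to -1.003) and nr2f2 (0.46 to 1.33), in red, are those of the called genes.

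The NR2F receptors are orphan factors that bind the same DNA repeats as the retinoid receptors and often act as repressors there. The gene nr2f6b (ENSDARG00000003165), 1 of a pair of zebrafish genes for the receptor also called EAR2, was the receptor with the largest difference. Its level was 32.6, 25.5, 15.2, 15.8, 11.3 and 8.38 FPKM in MeHg libraries 2 to 7, against 68.9, 62.4, 52.4, 33.7 and 64.9 FPKM in control libraries 3, 4, 5, 7 and 8. The lineages did not overlap, although MeHg 2 came close to control 7, the lowest of the controls. The means were 18.1 ± 9.15 FPKM in the MeHg lineage (SD, n = 6) and 56.5 ± 14.1 FPKM in the control lineage (SD, n = 5). The log2 difference was -1.68 with an SE of 0.31 (limma adjusted p = 0.00515), a 3.2-fold fall on the FPKM + 1 scale. By mean level nr2f6b was the second most abundant receptor of the control retinas and number 12 of the MeHg retinas. The values rest on 92 to 538 assigned fragments per MeHg library and 410 to 550 per control library. The call held in all 24 alternatives, with differences of -1.93 to -1.50 and adjusted p between 0.00204 and 0.0240.

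The gene nr2f2 (ENSDARG00000040926), which encodes COUP-TFII, was the receptor that rose. Its level was 52.1, 42.1, 37.9, 32.4, 39.3 and 45.4 FPKM in MeHg libraries 2 to 7, against 29.1, 27.2, 19.98, 12.8 and 23.4 FPKM in control libraries 3, 4, 5, 7 and 8. All MeHg values lay above all control values, with control 7 again the lowest. The means were 41.5 ± 6.74 FPKM in the MeHg lineage (SD, n = 6) and 22.5 ± 6.48 FPKM in the control lineage (SD, n = 5). The log2 difference was 0.89 with an SE of 0.20 (limma adjusted p = 0.0154), 1.86-fold on the FPKM + 1 scale. By mean level it was the third receptor of the MeHg retinas and number 9 of the control retinas. Without control libraries 5 and 7 the difference was 0.61 with an adjusted p of 0.0347, and the call was kept without any single library; among the 8 libraries whose number occurs in both lineages it was 0.85 with an adjusted p of 0.117. In the companion table of scaled fragment numbers nr2f2 had 985, 820, 543, 680, 819 and 619 in MeHg libraries 2 to 7 and 273, 572, 414, 249 and 491 in the control libraries. There the lineages overlapped at control 4 and MeHg 4, and the log2 difference was 0.94 with a limma adjusted p of 0.0201. The scaled fragments that made up 1 FPKM of nr2f2 varied 2.24-fold between libraries, the widest range of any tested receptor.

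The remaining NR2F genes were not called. The gene nr2f5, a fish member of the group, had 6.58, 8.94 and 11.9 FPKM as lowest, median and highest of the MeHg libraries and 6.21, 7.21, 6.59, 4.11 and 4.46 FPKM in the control libraries, which overlap narrowly. Its log2 difference was 0.59 with an adjusted p of 0.0727 (limma). The COUP-TFI genes nr2f1a and nr2f1b averaged 15.7 ± 3.04 and 2.23 ± 0.943 FPKM in the MeHg lineage and 12.7 ± 3.66 and 1.81 ± 0.670 FPKM in the control lineage. The gene nr2f6a, the other EAR2 gene, averaged 8.74 ± 1.57 FPKM in MeHg retinas and 6.83 ± 2.25 FPKM in control retinas, a difference of 0.34 that runs opposite to nr2f6b and missed the threshold (adjusted p = 0.283).

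**Figure D3:**
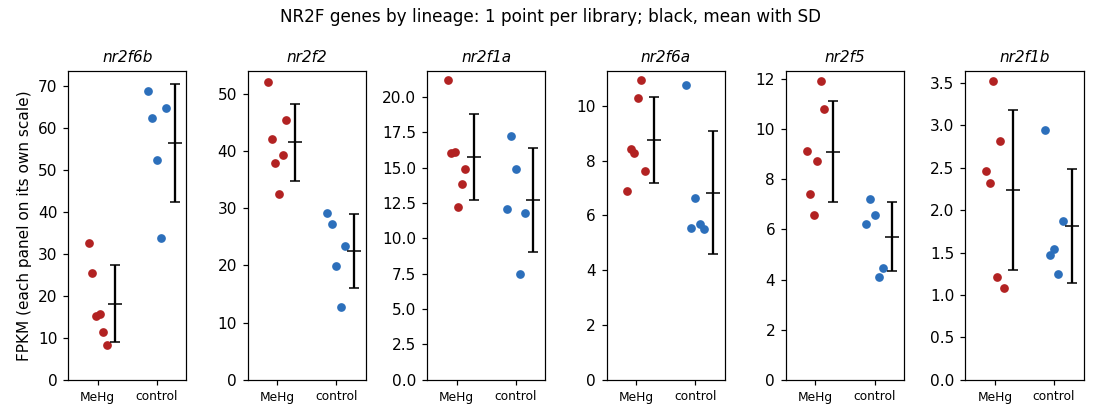
FPKM of the 6 NR2F genes by lineage, MeHg left of control, each panel on its own scale from 0; points are libraries and black bars the mean with SD (n = 6 MeHg, n = 5 control). The panels of nr2f6b (18.1 against 56.5 FPKM) and nr2f2 (41.5 against 22.5 FPKM) show lineages without overlap.

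Since FPKM are per length, the NR2F genes can be set beside each other, with a limit. Between libraries the scaled fragments per FPKM varied 2.24-fold for nr2f2 and 1.56-fold for nr2f6a. Their sum was 95.4 ± 15.7 FPKM in MeHg retinas (SD, n = 6) and 106 ± 25.2 FPKM in control retinas (SD, n = 5), a difference smaller than either spread. The make-up of that sum differed. Within it, nr2f6b held 18.4% ± 6.65 in the MeHg lineage, from 9.50% to 26.2%, and 53.1% ± 2.78 in the control lineage, from 51.3% to 58.0%. The share of nr2f2 was 43.6% ± 4.04 in the MeHg lineage, from 40.2% to 51.5%, and 21.0% ± 1.42 in the control lineage, from 19.6% to 22.5%. Control 5 and control 7 did not stand apart in these shares, with nr2f6b at 51.3% and 51.8%. The share of nr2f5 was 9.75% ± 2.70 in MeHg and 5.50% ± 1.07 in control retinas. For the uncalled nr2f1a it was 16.4% ± 1.23 in MeHg and 12.0% ± 2.32 in control retinas. The shares of a library add up to a fixed total, so a smaller share of nr2f6b by itself raises those of the other genes. In shares, the shifts of nr2f2, nr2f5 and nr2f1a are therefore not separate from that of nr2f6b. In scaled fragments the ranges were likewise apart, with nr2f6b at 8.30% to 20.5% in the MeHg lineage and 42.8% to 54.6% in the control lineage, and nr2f2 at 43.2% to 53.2% in the MeHg lineage and 17.2% to 30.9% in the control lineage. These shares rest on the same values as the tests above and were not tested separately.

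**Figure D4:**
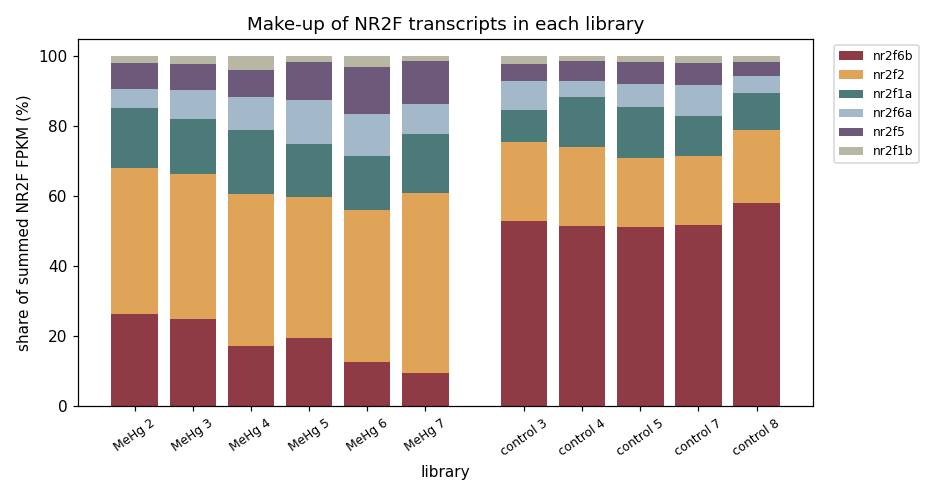
Share of each NR2F gene in the summed NR2F FPKM (%), 1 bar per library, MeHg libraries 2 to 7 left of control libraries 3, 4, 5, 7 and 8. The dark red segment of nr2f6b is at most 26.2% in MeHg libraries and at least 51.3% in control libraries.

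The other NR2 genes were not called. The testicular receptor genes nr2c1 and nr2c2, orphan receptors that bind retinoid-type repeats, averaged 9.02 ± 1.09 and 10.6 ± 1.09 FPKM in MeHg retinas and 7.19 ± 1.19 and 7.79 ± 1.73 FPKM in control retinas, with adjusted p of 0.222 and 0.120 (limma). The differences in mean were larger than either SD, the log2 difference of nr2c2 was 0.42 with a confidence interval of 0.09 to 0.75, and without control libraries 5 and 7 it was 0.22 (adjusted p = 0.423). The gene nr2e1, the vertebrate tailless gene of neural progenitors, averaged 3.27 ± 1.22 FPKM in the MeHg lineage and 3.07 ± 1.77 FPKM in the control lineage.

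Among the retinoid receptors no gene was called, 0 of 8 tested, beside 8.98% of all genes. Over so few genes this is no result about the group. RAR proteins bind retinoic acid and pair with RXR proteins, which also partner the vitamin D, fatty acid and bile acid receptors. The most abundant was rarab, with a lowest, median and highest value of 29.7, 37.5 and 47.9 FPKM in the MeHg lineage, against 28.4, 29.3, 26.3, 34.9 and 32.2 FPKM in the control lineage, a log2 difference of 0.28 (limma adjusted p = 0.245). The 8 differences were all above 0, with a median of 0.19, and stayed above 0 under the other scalings; without control libraries 5 and 7, 5 of 8 were above 0.

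The genes raraa and rxraa had the smallest p of the retinoid group. The gene raraa had 15.6, 20.7 and 22.9 FPKM as lowest, median and highest of the MeHg lineage, against 16.6, 16.3, 12.8, 9.41 and 16.1 FPKM in the control lineage. MeHg 4 was the single MeHg library within the control range, and the log2 difference was 0.50 (adjusted p = 0.0825). The gene rxraa had 14.8, 21.9 and 27.7 FPKM in the MeHg lineage, against 23.3, 14.7, 11.5, 10.7 and 11.3 FPKM in the control lineage. Control 3 stood above the other controls; the log2 difference was 0.56 (adjusted p = 0.141) with it and 0.74 (adjusted p = 0.0301, limma) without it. Without control libraries 5 and 7 the differences were 0.28 for raraa (adjusted p = 0.273) and 0.37 for rxraa (adjusted p = 0.452). The scaled fragments per FPKM of rxraa varied 1.72-fold between libraries.

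The remaining tested retinoid receptors differed by less than their spread. The pair rxrba and rxrbb averaged 31.2 ± 3.23 and 23.8 ± 2.51 FPKM in MeHg retinas and 30.0 ± 8.47 and 22.8 ± 7.03 FPKM in control retinas. The gene rarga averaged 16.0 ± 3.72 FPKM in the MeHg lineage and 13.9 ± 3.75 FPKM in the control lineage. The RXR gamma genes rxrga and rxrgb, known from cones and other retinal neurons, averaged 7.95 ± 1.49 and 3.50 ± 1.28 FPKM in the MeHg lineage and 7.23 ± 2.68 and 3.11 ± 0.883 FPKM in the control lineage. The untested genes rxrab and rargb averaged 0.369 and 0.288 FPKM in MeHg retinas and 0.193 and 0.106 FPKM in control retinas.

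The receptors that sense fatty acids, vitamin D and foreign chemicals gave 0 calls among 7 tested genes, beside 8.98% of all genes. With so few genes the absence of calls is no result about them. Of the 7, 3 had differences above 0. The median difference was -0.29 with all libraries and -0.39 without control libraries 5 and 7. The gene ppardb, for a widely expressed fatty acid receptor, led the group in level. It had 19.4, 23.8 and 30.2 FPKM as lowest, median and highest of the MeHg lineage, against 38.3, 34.6, 28.6, 22.7 and 33.4 FPKM in the control lineage. Control 5 and control 7 lay within the MeHg range and the other controls above it. The log2 difference was -0.36 (limma adjusted p = 0.183), and without these 2 libraries it was -0.54 and called (adjusted p = 0.0440).

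The pregnane X receptor gene nr1i2, a sensor of foreign chemicals, had 8.02, 8.53 and 11.3 FPKM as lowest, median and highest of the MeHg lineage, against 13.8, 14.7, 11.8, 7.46 and 10.3 FPKM in the control lineage, a log2 difference of -0.29 (adjusted p = 0.332). The fat cell receptor gene pparg averaged 1.43 ± 0.905 FPKM in MeHg retinas and 2.49 ± 1.29 FPKM in control retinas, with an adjusted p of 0.332 (limma). MeHg 5 at 0.311 FPKM and MeHg 7 at 0.358 FPKM were its lowest libraries, and control 5 at 3.12 FPKM and control 7 at 4.34 FPKM its highest. The log2 difference of pparg was -0.54 with all libraries and -0.21 (limma adjusted p = 0.815) without control libraries 5 and 7. The vitamin D receptor gene vdrb averaged 2.65 ± 0.686 FPKM in the MeHg lineage and 3.93 ± 1.86 FPKM in the control lineage. The fatty acid receptor genes pparaa, pparab and pparda differed by 0.02, 0.15 and 0.06 on the log2 scale, at means of 12.9, 1.60 and 1.70 FPKM in MeHg retinas and 13.3, 1.33 and 1.64 FPKM in control retinas. The sign turned for pparaa (-0.39) and pparab (-0.14) without control libraries 5 and 7, where pparda stood at 0.01.

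No steroid receptor gene was called, 0 of 5 tested, beside 8.98% of all genes, and so few genes give no result about the group. The glucocorticoid receptor gene nr3c1 was the most abundant, with 31.3, 36.2 and 44.4 FPKM as lowest, median and highest of the MeHg lineage, against 39.5, 34.6, 26.0, 21.6 and 35.5 FPKM in the control lineage. The log2 difference was 0.25 (limma adjusted p = 0.397) and 0.01 without control libraries 5 and 7. The androgen receptor gene ar averaged 4.96 ± 1.34 FPKM in MeHg retinas and 6.25 ± 0.893 FPKM in control retinas (-0.30, adjusted p = 0.320). Estrogen receptor genes were scarce. The gene esr2a averaged 1.17 ± 0.277 FPKM in the MeHg lineage and 0.719 ± 0.355 FPKM in the control lineage, with an adjusted p of 0.292. Its partner esr2b averaged 0.894 ± 0.296 FPKM in MeHg retinas and 1.28 ± 0.480 FPKM in control retinas, and esr1 averaged 0.609 ± 0.274 FPKM in MeHg retinas and 0.701 ± 0.609 FPKM in control retinas. The values of the 3 estrogen receptor genes rest on 1 to 27 fragments per library.

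The estrogen-related receptors are orphan relatives of the estrogen receptors known for driving genes of mitochondrial energy supply. None of the 4 was called, beside 8.98% of all genes. At an unadjusted p under 0.05 (limma) there were 3, with higher levels in the MeHg lineage, beside 24.1% of all genes at that p. There were 0 of 4 at that p without control libraries 5 and 7. The gene esrrd had 171, 224, 326, 192, 105 and 85.7 FPKM in MeHg libraries 2 to 7, against 168, 111, 41.5, 57.1 and 92.7 FPKM in the control libraries. Both lineages spread widely and overlapped, with means of 184 ± 86.9 FPKM in MeHg retinas (SD, n = 6) and 94.0 ± 49.6 FPKM in control retinas (SD, n = 5). The log2 difference was 0.99 with a confidence interval of 0.13 to 1.85 (limma adjusted p = 0.151), and 0.48 (adjusted p = 0.563) without control libraries 5 and 7, which were its lowest controls.

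The gene esrra had 42.8, 54.5 and 71.8 FPKM as lowest, median and highest of the MeHg lineage, against 51.9, 40.8, 34.4, 28.5 and 38.7 FPKM in the control lineage. Control 3 was the single control within the MeHg range. The log2 difference was 0.52 (limma adjusted p = 0.0919), and it passed the threshold without control 3 (adjusted p = 0.0429) and after quantile normalization (adjusted p = 0.0346). It was 0.34 (adjusted p = 0.341) without control libraries 5 and 7. The gene esrrga had 20.9, 27.6 and 30.1 FPKM in the MeHg lineage, against 17.7, 23.2, 16.2, 11.3 and 22.3 FPKM in the control lineage, a difference of 0.54 (adjusted p = 0.0895), and of 0.31 (adjusted p = 0.306) without control libraries 5 and 7. Its partner esrrgb averaged 10.1 ± 5.11 FPKM in MeHg retinas and 9.28 ± 3.22 FPKM in control retinas, with a confidence interval of -0.82 to 0.83. MeHg 6 at 5.99 FPKM and MeHg 7 at 2.56 FPKM were its lowest MeHg values, and in the same 2 libraries the muscle, skin and lens markers summed to 260 and 271 FPKM, against 1416 to 2946 FPKM in the other MeHg libraries. In control libraries 3, 4, 5, 7 and 8 esrrgb had 13.1, 11.1, 10.3, 6.40 and 5.51 FPKM. There the same markers summed to 1777, 1446, 3548, 3484 and 5423 FPKM. A link between the 2 was not tested.

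Of the remaining orphans, the Nurr1 genes nr4a2a and nr4a2b, known from dopamine neurons and amacrine cells, were not called. The gene nr4a2a averaged 7.89 ± 1.73 FPKM in MeHg retinas and 6.43 ± 1.79 FPKM in control retinas (0.28, limma adjusted p = 0.441), and nr4a2b averaged 4.10 ± 1.01 FPKM in MeHg retinas and 4.36 ± 0.862 FPKM in control retinas (-0.08, adjusted p = 0.830). The germ cell nuclear factor gene nr6a1b averaged 0.588 ± 0.356 FPKM in the MeHg lineage and 0.674 ± 0.630 FPKM in the control lineage.

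Many zebrafish receptors come as pairs of duplicated genes, and 13 such pairs are in the family, 10 of them with both genes tested. In 8 of the 10 the ratio within a pair overlapped between the lineages. The log2 ratio of nr2f6a to nr2f6b, on the FPKM + 1 scale, was -2.09 to -0.04 in the MeHg lineage and -3.34 to -2.37 in the control lineage. By FPKM nr2f6b was thus the more abundant gene in all libraries, but by less in MeHg retinas. In MeHg 7, where they were closest, nr2f6a had 114 scaled fragments and nr2f6b 106, so the order there depends on the measure. The ratio of nr4a2a to nr4a2b was 0.69 to 0.98 in the MeHg lineage and 0.18 to 0.57 in the control lineage, although neither gene was called. The gene esr2a exceeded esr2b in 5 of 6 MeHg libraries and in 1 of 5 control libraries. These ratios are descriptions without a test, and no share over other duplicated pairs was taken to set beside them.

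Genes around the receptors were looked at through 6 lists. The lists were chosen with earlier results of these data known, so the shares of called genes given below are no test of a list. Retinoic acid is made by aldehyde dehydrogenases, bound in cells by CRABP proteins and broken down by CYP26 enzymes; of 15 tested genes of this path 1 was higher and 0 lower (6.67%, beside 8.98% of all genes). Without control libraries 5 and 7 the count turned to 0 higher and 1 lower, the lower one being another gene. The gene called with all libraries was crabp1a, at 78.2, 147 and 167 FPKM as lowest, median and highest of the MeHg lineage and 107, 70.1, 55.48, 44.0 and 58.6 FPKM in the control lineage. The lineages overlapped at MeHg 2, MeHg 3 and control 3, and the log2 difference of 0.98 (limma adjusted p = 0.0338) was called in 11 of 23 alternatives. It was lost when any of MeHg 4, 5, 6 or 7 or control 4, 5, 7 or 8 was left out, and without control libraries 5 and 7 together it was 0.73 (adjusted p = 0.165).

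Coregulators are the proteins that ligand-bound or silent receptors recruit. Of 33 tested genes 3 were higher and 0 lower (9.09%, beside 8.98% of all genes), and without control libraries 5 and 7 there were 0 in either direction. The 2 genes for RIP140, a corepressor of ligand-bound receptors, both rose. The gene nrip1b averaged 55.8 ± 13.7 FPKM in MeHg retinas and 28.9 ± 8.72 FPKM in control retinas, without overlap (0.95, limma adjusted p = 0.0170), and nrip1a averaged 57.6 ± 17.9 FPKM in the MeHg lineage and 26.3 ± 9.10 FPKM in the control lineage (1.103, adjusted p = 0.0185). Both calls were lost without control 5 alone. The coactivator gene ncoa1 averaged 7.62 ± 0.767 FPKM in MeHg retinas and 4.61 ± 1.55 FPKM in control retinas (0.66, adjusted p = 0.0433). That call was lost when any single library other than control 3 and control 4 was left out.

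Targets of the fatty acid receptors, mostly genes of fat transport and burning, gave 2 higher and 2 lower genes among 38 tested (10.5%, beside 8.98% of all genes), and 1 higher and 2 lower without control libraries 5 and 7 (beside 8.28% of all genes). The fatty acid binding protein gene fabp11b had 247, 227, 146, 185, 261 and 294 FPKM in MeHg libraries 2 to 7, against 30.4, 30.6, 12.8, 34.5 and 59.4 FPKM in the control libraries. The lineages were far apart, with a log2 difference of 2.83 (limma adjusted p = 0.000158) that was called in all 23 alternatives. The gene fabp1a averaged 435 ± 90.1 FPKM in MeHg retinas and 247 ± 70.9 FPKM in control retinas (0.84, adjusted p = 0.0259), a call lost without MeHg 2, MeHg 6, MeHg 7 or control 5, and without control libraries 5 and 7 together (adjusted p = 0.109). Among the genes that fell, acadvl, which starts the breakdown of long fatty acids, averaged 26.6 ± 4.23 FPKM in MeHg retinas and 42.0 ± 4.25 FPKM in control retinas, without overlap (-0.65, adjusted p = 0.00917). The pyruvate dehydrogenase kinase gene pdk2a averaged 4.93 ± 3.05 FPKM in the MeHg lineage and 16.6 ± 5.53 FPKM in the control lineage (-1.65, adjusted p = 0.0135). Both calls were lost among the 8 libraries with shared numbers.

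Targets of the liver X and bile acid receptors, genes of sterol traffic, gave 1 higher and 2 lower genes among 17 tested (17.6%, beside 8.98% of all genes). The cholesterol exporter gene npc1 averaged 24.2 ± 2.46 FPKM in MeHg retinas and 17.6 ± 1.06 FPKM in control retinas, without overlap (0.43, limma adjusted p = 0.0304). The apolipoprotein gene apoeb averaged 565 ± 107 FPKM in the MeHg lineage and 984 ± 254 FPKM in the control lineage, without overlap (-0.78, adjusted p = 0.0318), and mylipa, for a ligase that marks lipoprotein receptors for breakdown, averaged 35.9 ± 5.36 FPKM in MeHg retinas and 67.7 ± 23.9 FPKM in control retinas (-0.84, adjusted p = 0.0326). All of these calls were lost when MeHg 2, MeHg 6, MeHg 7 or control 8 was left out. That of npc1 was also lost without MeHg 3, MeHg 4, control 4 or control 5, that of apoeb without MeHg 5, control 3 or control 5, and that of mylipa without MeHg 5, control 3 or control 4. Of 23 alternatives the call held in 9 for npc1, 13 for apoeb and 14 for mylipa. The call of npc1 was lost as well after rescaling by the median ratio, with eBayes without a trend and with array weights. Without control libraries 5 and 7 npc1 was not called (adjusted p = 0.0828), while apoeb and mylipa were. The gene apoeb is also a marker of Müller glia, whose 8 measured markers summed to 1244 to 1482 FPKM in MeHg retinas and 1167 to 2199 FPKM in control retinas. These sums include apoeb itself, at 451 to 722 FPKM in MeHg retinas and 740 to 1306 FPKM in control retinas. They are therefore no separate comparison for this gene.

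The list of corticosteroid receptor targets and chaperones had 2 genes higher and 5 lower among 29 tested (24.1%, beside 8.98% of all genes). As this list too was chosen with earlier results known, its larger share is no result about corticosteroid receptors. There were 2 higher and 4 lower without control libraries 5 and 7. The 4 called genes with the smallest p, named here, did not share a direction, while the median log2 difference of the list was -0.20. The gene tsc22d3, for the glucocorticoid-induced leucine zipper, had 392, 435 and 665 FPKM as lowest, median and highest of the MeHg lineage, against 255, 200, 206, 198 and 229 FPKM in the control lineage, without overlap (1.08, limma adjusted p = 0.00113). The kinase gene sgk2b averaged 2.43 ± 0.747 FPKM in MeHg retinas and 0.644 ± 0.323 FPKM in control retinas (1.05, adjusted p = 0.0110), a call lost among the 8 libraries with shared numbers. In contrast the metallothionein gene mt2, which also responds to metals, averaged 48.2 ± 13.1 FPKM in the MeHg lineage and 372 ± 102 FPKM in the control lineage (-2.92, adjusted p = 9.16e-06), and the period gene per1a, a clock component as well, averaged 0.454 ± 0.127 FPKM in MeHg retinas and 12.6 ± 8.97 FPKM in control retinas (-2.96, adjusted p = 0.000413). The receptor gene itself, nr3c1, was not called.

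Enzymes and targets of sex steroids and vitamin D gave 0 higher genes and 1 lower among 20 tested (5%, beside 8.98% of all genes). The called gene was hsd17b10, a mitochondrial enzyme that oxidises steroids and fatty acids, at 26.2, 32.6 and 35.1 FPKM as lowest, median and highest of the MeHg lineage, against 57.4, 62.6, 46.4, 46.7 and 55.8 FPKM in the control lineage. The lineages did not overlap, and the log2 difference was -0.76 (limma adjusted p = 0.00260), called without control libraries 5 and 7 as well (-0.89, adjusted p = 0.00185). Over the 6 lists the median difference lay between -0.20 and 0.08, beside 0.02 for all genes.

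For 8 of the 36 tested receptors (nr2f2, pparda, esr2b, rxraa, vdrb, ppardb, rxrbb and nr2f6a) the scaled fragments per FPKM varied over 1.5-fold between libraries, and 12.3% of the 17660 genes above 0 in all libraries did so. The level of these genes therefore depends on which deposited table is read, while 18 receptors, nr2f6b and esrrd among them, varied under 1.1-fold.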

How the data were processed

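Retinal RNA was sequenced as paired TruSeq libraries, per the labels' protocols. The submitters' processing notes name build Zv9 and the tools Cuffnorm, TopHat, cutadapt, FastQC and CASAVA 1.8.2; for the other versions and the annotation, nothing is given in the sources used here. The deposited values are FPKM per Ensembl gene. A companion deposited table holds a signal, fragment numbers divided by a size factor. Per library, 97.1% to 98.6% of its values above 0 were whole multiples of that library's commonest value above 0 (tolerance 0.01). The rest formed a fractional tail, so no count test was run. Each file held 1 unnamed column, which was not used, and control replicate 1 was not analysed here.

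Log2(FPKM + 1) was fitted in R 4.3.3 by lmFit of limma 3.58.1, followed by eBayes with a mean-variance trend, two-sided. The fit was also run on simulated independent normal values with the means and spread of the control libraries. Such data cannot show how it handles libraries that stand apart. Medians and counts were taken with pandas 2.3.3. Named were all called receptors, the most abundant and the 2 with the smallest p in each role group, and up to 4 called genes per pathway list; other receptors are given for completeness. The members and lists were chosen with earlier results of these data known. Duplicated genes of near-identical sequence may share fragments. Replicate numbers were not used as pairs in the main fit. The correlation of same-numbered deviations was -0.23 to -0.01 and showed no pairing, but so few shared numbers cannot settle whether they pair the samples. Alternatives covered pseudocounts, filters, scalings, the companion table, weights, a replicate block, thresholds and single libraries; leaving out control libraries 5 and 7 was added after the data were seen.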

Additional observations from a re-analysis of the deposited data

How the results depend on the processing

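Over 15 named receptor genes and up to 24 alternatives each, 351 of 359 comparisons kept their direction and their side of the threshold. Most of these were uncalled genes that stayed uncalled, which the threshold of 0.01 could not change. The called genes nr2f6b and nr2f2 kept their calls in 24 of 24 and 21 of 24 alternatives. The call of nr2f2 was lost among the libraries with shared numbers, with a replicate block (0.85, adjusted p = 0.272) and without it (adjusted p = 0.117), and at a threshold of 0.01. Calls were gained by esrra (2 alternatives), rxraa and ppardb, and the difference of nr4a2b ranged from -0.19 to 0.0141 with single libraries left out, changing sign to 0.0141 without MeHg 4. Of the named pathway genes, fabp11b, mt2 and per1a kept their calls with the replicate block; tsc22d3 (adjusted p = 0.156) and hsd17b10 (adjusted p = 0.222) lost theirs with the block alone, and the others, with acadvl, pdk2a and sgk2b at adjusted p of up to 0.276, 0.0629 and 0.256, lost theirs with and without it. Receptors called higher numbered 1, and 2 after quantile normalization, 0 with the replicate block, 0 with the same libraries unblocked, 0 at the threshold of 0.01, and 1 to 3 with single libraries left out, 3 without control 3. Receptors called lower numbered 1, and 2 without control libraries 5 and 7. Of all genes, 1112 were higher and 712 lower, with the replicate block 113 and 86, with the same libraries unblocked 506 and 278, at 0.01 503 and 283, and with single libraries left out 705 to 1225 and 472 to 905, both lowest without control 5. Without control libraries 5 and 7, 716 were higher and 915 lower, and after rescaling by the median ratio 1103 and 911. The causes were not tested.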
